A study of Mus musculus with 27 samples.

Results

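Spsb1, Rin2 and Tom1l1 are genes for proteins that act in the sorting and turnover of other proteins, and the levels of their transcripts were followed in murine neural crest explants with and without retinoic acid (RA), the active metabolite of vitamin A. They were chosen for their RA response, so their differences between RA and control arrays describe the values that chose them and were not tested. All probe sets annotated to these genes were taken. They were 4 of the 12422 probe sets analysed, with 2 for Spsb1 and 1 each for Rin2 and Tom1l1, and they stood for 3 of the 8251 genes that the Affymetrix MG_U74Av2 arrays name by at least 1 probe set.

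The dorsal neural tube of each embryo was cut along its midline. One side was cultured as the control and the other received 1e-06 M RA from a solution in ethanol, with exposures of 6, 12, 24 and 48 h. Explants of the 6 h groups had first been left overnight, so that neural crest cells could grow out before RA was added. Total RNA was measured on 27 arrays, with 3 controls and 3 RA-treated at 6 h, the same numbers at 12 h, 4 of each kind at 24 h, and 4 controls beside 3 RA-treated at 48 h. Genotype, strain and embryo age, whether embryos were pooled, and whether the control medium held ethanol are not given in the sources used here. Whether the neural tube was taken away before RNA extraction is also not given, and in this bulk RNA fewer cells of a type and less RNA per cell cannot be told apart.

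Spsb1 encodes a protein with a SPRY domain and a SOCS box. The SPRY domain holds a substrate and the SOCS box recruits the Cullin5 ubiquitin ligase through elongins B and C, so SPSB1 chooses proteins for ubiquitination. Inducible nitric oxide synthase (Nos2), Par-4 (Pawr) and the type II TGF-beta receptor (Tgfbr2) are among the partners described for it. Rin2 encodes an effector of Ras that loads GTP onto Rab5, the small GTPase of early endosomes, and so acts on the uptake of receptors and adhesion molecules from the cell surface. Tom1l1, also called Srcasm, encodes an adaptor with a VHS domain that binds ubiquitin, clathrin and endosomal sorting proteins and is a substrate and regulator of Src family kinases such as Fyn. RA acts in the nucleus through RAR and RXR receptors, which bind repeats of AGGTCA-like hexamers, and excess RA is known to disturb neural crest development.

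The RA labels were checked with Cyp26a1, the enzyme that degrades RA, and Dhrs3, a retinaldehyde reductase, both known to be induced by RA. Their lowest RA array lay above their highest control array at each of the 4 times, by 0.89 to 2.20 log2 units for Cyp26a1 and 0.99 to 1.59 for Dhrs3. One array, 48 h control 3, is called RA treated in its description but control in its title. Its log2 level was 4.92 for Cyp26a1, where the lowest RA array of any time had 5.63, and 6.27 for Dhrs3, where the lowest had 7.36. It was therefore kept as a control, and values that move when it is regrouped are given beside the results. Within a group the log2 values of any 2 arrays correlated across probe sets with r between 0.9677 and 0.9966. The neural crest markers Snai2, Twist1 and Erbb3 stood at percentiles 76 to 96, 71 to 83 and 65 to 91 of all probe sets over the 27 arrays and Sox10 at 48 to 69, while Foxd3 stood at 16 to 27 and Ednrb at 4 to 22. Probe sets of other tissues also stood high, among them those of Nes (91 to 98, neural tube) and Actc1 (98 to 100, muscle).

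The regions just before the transcription starts are shown because the genes differed between RA and control arrays, in both directions. They are the 250 bases upstream of the starts that the RefSeq promoter table used here lists (build GRCm38.p6), read 5′ to 3′ on the strand of the gene, at chr4:149955007-149955256 (minus strand) for Spsb1, chr2:145785866-145786115 (plus strand) for Rin2, and chr11:90687602-90687851 and chr11:90663000-90663249 (both minus strand) for the 2 listed starts of Tom1l1. Capitals mark AGGTCA where it was found, here in both cases on the opposite strand and so read as TGACCT.
Spsb1: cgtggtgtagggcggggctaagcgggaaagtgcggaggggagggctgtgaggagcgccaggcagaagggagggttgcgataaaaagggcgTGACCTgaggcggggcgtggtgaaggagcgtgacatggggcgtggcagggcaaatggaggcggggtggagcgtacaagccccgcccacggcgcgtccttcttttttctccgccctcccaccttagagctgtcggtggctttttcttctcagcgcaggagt
Rin2: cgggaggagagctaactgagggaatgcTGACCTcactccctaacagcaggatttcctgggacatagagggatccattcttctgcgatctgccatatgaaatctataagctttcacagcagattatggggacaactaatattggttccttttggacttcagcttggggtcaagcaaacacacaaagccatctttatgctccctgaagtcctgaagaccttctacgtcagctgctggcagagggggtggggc
Tom1l1 first start: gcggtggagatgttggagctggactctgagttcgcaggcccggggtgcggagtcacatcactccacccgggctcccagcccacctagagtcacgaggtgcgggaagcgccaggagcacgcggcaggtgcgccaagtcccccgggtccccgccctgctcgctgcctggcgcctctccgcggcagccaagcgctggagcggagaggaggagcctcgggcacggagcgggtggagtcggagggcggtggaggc
Tom1l1 second start: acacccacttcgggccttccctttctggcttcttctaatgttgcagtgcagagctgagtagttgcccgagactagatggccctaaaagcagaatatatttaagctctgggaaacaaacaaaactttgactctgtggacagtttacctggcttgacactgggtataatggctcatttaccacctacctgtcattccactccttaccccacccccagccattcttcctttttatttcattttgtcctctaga
The region of Spsb1 held 1 AGGTCA, which began 160 bases before the start, and that of Rin2 held 1, which began 223 bases before it. Neither region of Tom1l1 held one. Of all 32851 promoters in the table, 4607 (14.0%) held AGGTCA on either strand within the same 250 bases. AGTTCA, present in 11.8% of promoters, was in none of the 4 regions. No region held a direct repeat of AGGTCA or AGTTCA with 1, 2 or 5 bases between the copies, an arrangement found in 0.067%, 0.0365% and 0.0335% of promoters. The regions had 64.4% G and C for Spsb1, 49.6% for Rin2, and 72.4% and 45.6% for Tom1l1, beside a median of 52.4% over all promoters. Other AGGTCA-like hexamers were not searched. These matches describe the letters in the windows and do not show binding. The genes span chr4:149896283-149955006 (Spsb1), chr2:145771727-145887616 (Rin2) and chr11:90645690-90688279 (Tom1l1) in that build. For Rin2 and Tom1l1 the span begins upstream of the windows shown, and the bases before that outermost position were not analysed here.

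Spsb1 was higher with RA at every time, by 0.60 to 1.20 log2 units, or 1.52-fold to 2.31-fold. Both of its probe sets, 161013_f_at and 161817_f_at, showed this, and in each the RA arrays lay above all controls of the same time. Over all 12422 probe sets, the share whose RA arrays lay above all controls was 7.28% for the 6 h arrays, 4.49% for the 12 h arrays, 1.39% for the 24 h arrays and 1.06% for the 48 h arrays. All levels are log2 of the deposited intensities, and standard errors (SE) come from a limma model of the 8 groups with 19 residual degrees of freedom.

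At 6 h, probe set 161013_f_at read 7.96, 8.41 and 7.97 in the controls and 8.77, 8.80 and 8.58 in the RA arrays. The highest control came within 0.17 of the lowest RA array. The difference was 0.61 log2 units (SE 0.24, n = 3 and 3). At 12 h the controls of 161013_f_at had 8.62, 8.62 and 8.47, and the RA arrays 9.58, 9.67 and 9.22. The controls were close together, the RA arrays were 0.60 or more above them, and the means of 8.57 ± 0.09 and 9.49 ± 0.24 (SD, n = 3) differed by 0.92 (SE 0.24). At 24 h the same probe set had 8.24, 7.74, 8.65 and 7.61 in the controls and 9.01, 9.21, 9.53 and 9.32 with RA. Controls 2 and 4 lay below the other controls, while the RA arrays spanned less. Here the difference was largest, 1.20 (SE 0.21, n = 4 and 4). At 48 h the controls had 8.46, 7.40, 7.71 and 8.13, and the RA arrays 9.19, 8.93 and 8.64. The controls were again spread, over more than 1 log2 unit, and the RA arrays overlapped those of 24 h in range. The difference was 0.99 (SE 0.23, n = 4 and 3). Grouping 48 h control 3 with RA instead gave 0.62.

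The other Spsb1 probe set, 161817_f_at, followed the same course. At 6 h it read 8.32, 8.67 and 8.20 in the controls and 9.02, 9.04 and 8.93 with RA. At 12 h its controls had 8.72, 8.71 and 8.47 and its RA arrays 9.63, 9.73 and 9.20. RA 3 was the lowest RA array at both times, in both probe sets. At 24 h the controls of 161817_f_at had 8.50, 7.64, 8.75 and 7.74, and the RA arrays 8.93, 9.41, 9.59 and 9.41. Control 2 and control 4 were low in this probe set too. At 48 h the controls had 8.56, 7.50, 8.09 and 8.26, and the RA arrays 9.00, 9.11 and 8.91. The RA arrays lay within 0.2 of each other and above all 4 controls, of which control 2 was again the lowest. RA minus control in 161817_f_at was 0.60 (SE 0.25), 0.88 (0.25), 1.18 (0.22) and 0.91 (0.24) log2 units at 6, 12, 24 and 48 h.

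**Figure D1:**
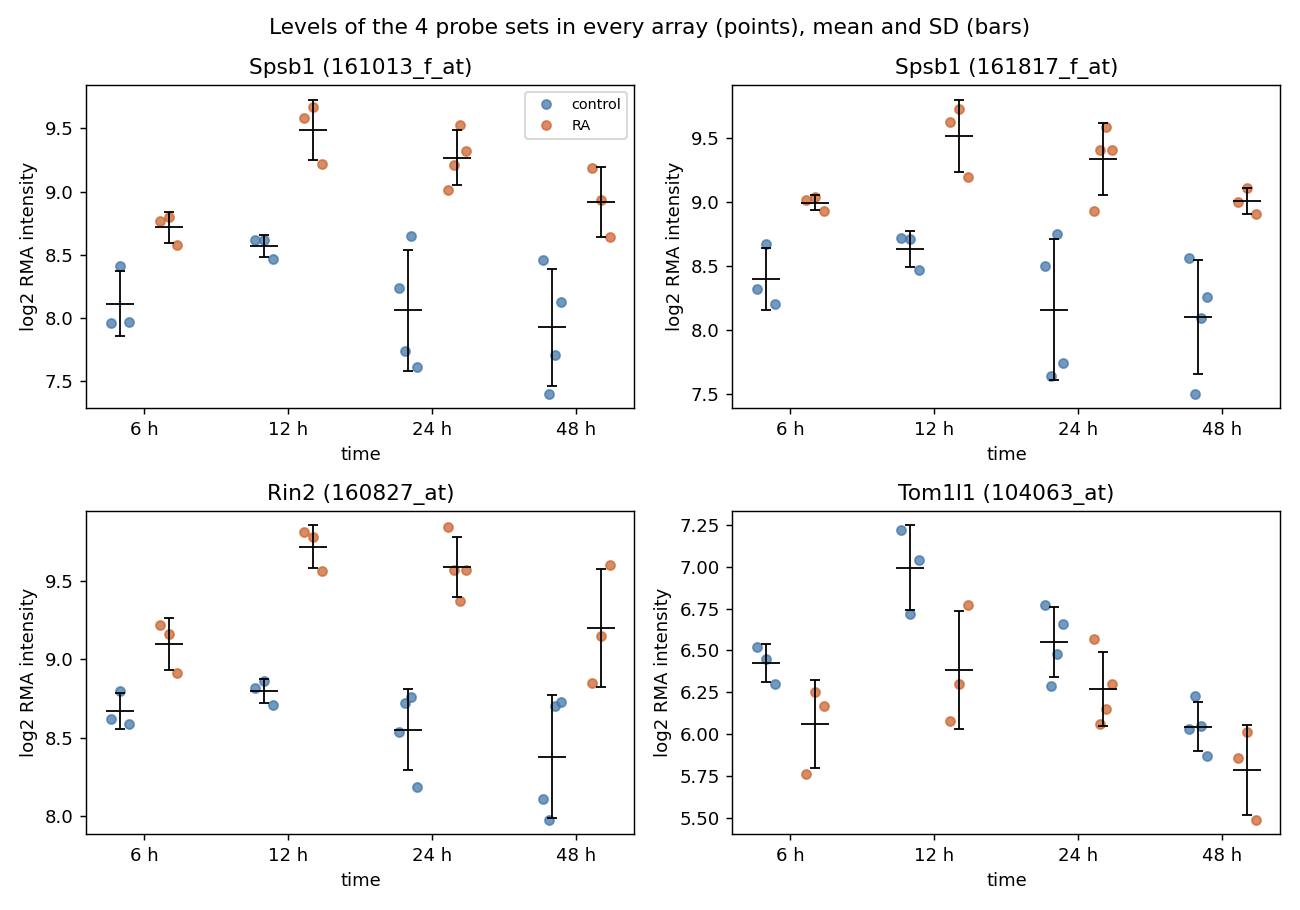
Log2 RMA intensity (vertical axes, a separate range for each panel) against time in RA or control culture (horizontal axes) for the 4 probe sets of Spsb1, Rin2 and Tom1l1. Points are single arrays, blue for control and orange for RA, and bars give the mean and SD. Spsb1 and Rin2 RA points lie above all control points of their time, while Tom1l1 RA points lie below all controls at 6 h and overlap them at 12, 24 and 48 h.

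Both Spsb1 probe sets carry the suffix _f_at, which the array's maker gives to probe sets whose probes may also match related sequences. Whether their signal includes other transcripts was not tested. Across the 27 arrays the 2 probe sets correlated with r = 0.97 (Spearman's rho 0.98), and after the mean of each of the 8 groups was taken away r was 0.92. Within the 14 control arrays r was 0.95 and within the 13 RA arrays 0.91. These values describe 2 readings of the same RNA on the same array, with labelling and hybridisation shared. The difference of 161013_f_at from 161817_f_at ran from -0.38 to 0.19 with a median of -0.10. It averaged -0.29 in the 6 h controls and -0.28 in the 6 h RA arrays, against -0.06 and -0.03 at 12 h. It was thus about the same in RA and control arrays at 6 h and at 12 h and shifted with time, so the RA difference was much the same in either probe set while the step from 6 to 12 h depended on which was read.

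Rin2 was likewise higher with RA at all 4 times, by 0.43 to 1.03 log2 units, or 1.35-fold to 2.05-fold, and no RA array fell below a control of its time. It is measured by 1 probe set, 160827_at. At 6 h it read 8.62, 8.80 and 8.59 in the controls and 9.22, 9.16 and 8.91 with RA. The groups were separated by only 0.11, and the difference was 0.43 (SE 0.19, n = 3 and 3). At 12 h the Rin2 controls had 8.82, 8.86 and 8.71, and the RA arrays 9.81, 9.78 and 9.56. Both groups were tight, with SDs of 0.08 and 0.14, the gap between them widened to 0.70, and the difference was 0.92 (SE 0.19). At 24 h the controls had 8.54, 8.72, 8.76 and 8.19, and the RA arrays 9.84, 9.57, 9.37 and 9.57. Control 4 was the lowest and RA 1 the highest, and the groups lay 0.61 or more apart. The difference was 1.03 (SE 0.17, n = 4 and 4), the largest of the 4 times for Rin2 as for Spsb1. At 48 h the controls of Rin2 had 8.11, 7.98, 8.70 and 8.73, and the RA arrays 8.85, 9.15 and 9.60. The controls split into 2 low and 2 high arrays, the RA arrays spread as widely, and the groups were 0.12 apart. The difference was 0.82 (SE 0.18, n = 4 and 3).

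Among all probe sets, ordered by RA minus control from the highest, 161013_f_at of Spsb1 ranked 27, 10, 8 and 23 at 6, 12, 24 and 48 h. The other Spsb1 probe set ranked 31, 12, 10 and 31. Rin2 ranked 138 at 6 h and 9, 15 and 41 at 12, 24 and 48 h. Rin2 thus stood further down the list at 6 h than at the later times. The mean of the 4 differences was 0.93 (SE 0.12) and 0.89 (SE 0.12) for the Spsb1 probe sets and 0.80 (SE 0.09) for Rin2.

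Tom1l1 went the other way, with lower means under RA at each time, by 0.26 to 0.61 log2 units, and a smaller difference than the other genes. Its probe set, 104063_at, stood at percentiles 30 to 60 of all probe sets across the arrays, against 63 or more for the probe sets of Spsb1 and 71 or more for that of Rin2. RMA gives no detection call, so how much of this dimmer signal is background is unknown. At 6 h, Tom1l1 read 6.52, 6.45 and 6.30 in the controls and 5.76, 6.25 and 6.17 with RA. All RA arrays were lower than all controls, by as little as 0.05, with RA 1 the lowest by far. The difference was -0.36 (SE 0.18, n = 3 and 3), at a time when RA arrays lay below all controls for 8.29% of probe sets. At 12 h the Tom1l1 controls had 7.22, 6.72 and 7.04, and the RA arrays 6.08, 6.30 and 6.77. RA 3 was above control 2, so the groups overlapped, although their means of 6.99 ± 0.25 and 6.38 ± 0.35 (SD, n = 3) were the furthest apart of the 4 times. This difference was -0.61 (SE 0.18). At 24 h the controls had 6.77, 6.29, 6.48 and 6.66 and the RA arrays 6.57, 6.06, 6.15 and 6.30. RA 1 and RA 4 lay within the range of the controls. The difference was -0.28 (SE 0.16, n = 4 and 4). At 48 h Tom1l1 had 6.03, 6.23, 6.05 and 5.87 in the controls and 5.86, 6.01 and 5.49 with RA. RA 2 lay among the controls and RA 3 was the lowest of all 27 arrays. The difference was -0.26 (SE 0.17, n = 4 and 3), and the mean of the 4 differences was -0.38 (SE 0.09). Without the lowest RA array the difference was -0.21 at 6 h (RA 1) and -0.11 at 48 h (RA 3). Counted from the lowest difference, Tom1l1 ranked 523, 27, 249 and 581 of 12422 at 6, 12, 24 and 48 h.

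The scanner's records allowed a control and an RA array of the same time to be matched. Matched arrays shared a scan day and carried consecutive numbers in these records, and the order of scanning was not read. This gave 13 record pairs, which leave 48 h control 2 unmatched. Both Spsb1 probe sets were higher with RA in 13 of 13 pairs, as were 0.411% of all probe sets. The pair differences of 161013_f_at ran from 0.40 to 1.71 with a median of 0.82, and those of 161817_f_at from 0.37 to 1.77 with a median of 0.73. In both, the highest values were those of the 24 h pairs with control 2 and control 4, the arrays in which Spsb1 was lowest at that time. Rin2 was also higher in 13 of 13 pairs, by 0.32 to 1.38 with a median of 0.85. Tom1l1 was lower in 13 of 13, as were 0.29% of all probe sets, by -0.04 to -1.14 with a median of -0.28. Its overlap between groups at 12, 24 and 48 h was thus between arrays of different pairs. The pair differences of Tom1l1 exceeded 0.5 in size in only 2 pairs, the first at 6 h and the first at 12 h.

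**Figure D2:**
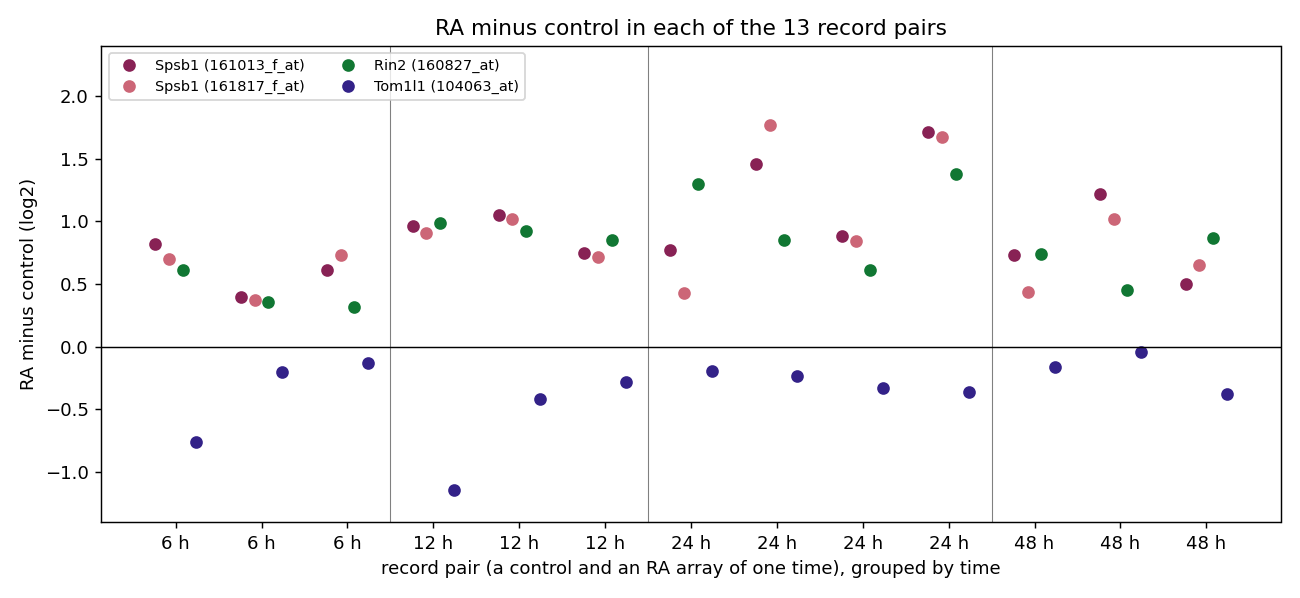
RA minus control in log2 units (vertical axis) for each record pair (horizontal axis, 13 pairs grouped by time). A record pair is a control and an RA array of the same time and scan day with consecutive record numbers. Each point is 1 pair and 1 probe set. The Spsb1 and Rin2 points all lie above 0, from 0.32 to 1.77, and the Tom1l1 points all lie below it, from -1.14 to -0.04.

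Scan days were not shared between all times. Arrays of 6 h and of 48 h had scan days of their own, and those of 12 and 24 h shared days. Within the scan day that held 2 arrays of each 6 h group, RA minus control was 0.61 and 0.54 for the Spsb1 probe sets, 0.48 for Rin2 and -0.48 for Tom1l1. Within the day that held 2 of each 12 h group it was 1.00 and 0.96 for Spsb1, 0.96 for Rin2 and -0.78 for Tom1l1. That day also held 2 arrays of each 24 h group, where the differences were 1.29 and 1.26 for Spsb1, 0.99 for Rin2 and -0.34 for Tom1l1. No scan day held 2 arrays of each group at 48 h, so that time has only the values of its single pairs. Where a day gave a value, every direction was that of all arrays together.

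The 8 groups fell in the same order for Spsb1 and Rin2, from RA at 12 h, then RA at 24, 48 and 6 h, to the controls at 12, 6, 24 and 48 h. All 4 RA groups stood above all 4 control groups, which describes the RA difference that chose both genes. For Rin2, the RA means were 9.72 ± 0.14 at 12 h (n = 3), 9.59 ± 0.19 at 24 h (n = 4), 9.20 ± 0.38 at 48 h (n = 3) and 9.10 ± 0.16 at 6 h (SD, n = 3). Its control means were 8.80 ± 0.08 at 12 h (n = 3), 8.67 ± 0.12 at 6 h (n = 3), 8.55 ± 0.26 at 24 h (n = 4) and 8.38 ± 0.39 at 48 h (SD, n = 4). Neighbours closer than their pooled SD were RA at 12 and 24 h, RA at 48 and 6 h, and the controls at 6, 24 and 48 h. For Spsb1 the same neighbours were closer than their pooled SD in both probe sets. Mean RA levels of 161817_f_at were 9.52 ± 0.28 (12 h), 9.34 ± 0.28 (24 h, n = 4), 9.01 ± 0.10 (48 h) and 9.00 ± 0.06 (6 h) (SD, n = 3 unless given). Its control means were 8.64 ± 0.14 at 12 h, 8.40 ± 0.24 at 6 h (n = 3 each), 8.16 ± 0.55 at 24 h and 8.10 ± 0.45 at 48 h (SD, n = 4 each). The RA groups of Spsb1 at 6 and 48 h stood 0.36 or more above its 12 h controls in this probe set. In 161013_f_at the 6 h RA arrays, at 8.72 ± 0.12, and the 12 h controls, at 8.57 ± 0.09 (SD, n = 3 each), overlapped in range.

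Tom1l1 was ordered by time as much as by treatment. The controls at 12 h were highest, followed by the controls at 24 h (6.55 ± 0.21, n = 4) and 6 h (6.42 ± 0.11, n = 3). RA at 12, 24 and 6 h came next, with 6.38, 6.27 ± 0.23 (n = 4) and 6.06 ± 0.26 (n = 3). The 48 h arrays were lowest, with 6.04 ± 0.15 in the controls (n = 4) and 5.78 ± 0.27 with RA (n = 3). Only 2 steps in this order, from the 12 h to the 24 h controls and from the 48 h controls to 48 h RA, exceeded the pooled SD of the groups on either side, and in both the ranges overlapped.

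The change of untreated explants over the labelled times was not itself the value that chose the genes, and it was tested. The controls did enter the RA differences that chose them, so this test is not independent of that choice. For Tom1l1 the 12 h controls, its highest control group, also enter its largest RA difference, -0.61. Tom1l1 changed with time in controls and the others did not pass the test. In limma's moderated F-test over the 4 control groups, with Benjamini-Hochberg adjustment over 12422 probe sets, 1 of the 4 probe sets passed an adjusted p of 0.05, as did 12.9% of all probe sets. For Tom1l1, F was 10.6 and the adjusted p 0.00373, with adjusted p between 0.00211 and 0.0242 over the other settings tried. Its control mean was highest at 12 h and lowest at 48 h. The steps between neighbouring times were 0.57 (SE 0.18) from 6 to 12 h, -0.45 (SE 0.17) from 12 to 24 h and -0.51 (SE 0.16) from 24 to 48 h. None of these single steps passed by itself, with limma adjusted p of 0.0705, 0.627 and 0.149. With scan day as a random block, the adjusted p of the F-test was 0.0224. Because 6 h and 48 h arrays were scanned on days of their own, the parts of time and scan day in those groups cannot be fully told apart. An overnight culture before exposure is described for the 6 h groups only, so the labelled time need not be the time in culture. Each comparison with the 6 h controls, here and below, may hold that difference as well.

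For Spsb1 the limma adjusted p of the F-test was 0.203 in 161013_f_at and 0.318 in 161817_f_at, and for Rin2 it was 0.357. From 6 to 48 h the controls differed by -0.18 (SE 0.23) and -0.30 (SE 0.24) in the Spsb1 probe sets, -0.29 (SE 0.18) in Rin2 and -0.38 (SE 0.17) in Tom1l1. In limma none of these 4 passed, with adjusted p of 0.653, 0.463, 0.343 and 0.173, while 9.52% of all probe sets did. At an unadjusted p below 0.05 there was 1 of the 4, Tom1l1, and 24.1% of all probe sets. The median over all probe sets was 0.069. Without 48 h control 2 the differences were -0.01 and -0.10 for the Spsb1 probe sets and -0.16 for Rin2, and without 6 h control 2 they were -0.04 and -0.16 for Spsb1. In 161013_f_at the value was -0.36 without 48 h control 1 and -0.11 without 48 h control 3.

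In the RA arrays the course over time is given without a test, because it takes in the RA response that chose the genes. Spsb1 stood higher at 12 than at 6 h, by 0.77 and 0.52 (SE 0.24 and 0.25) in its probe sets, and lower at 48 than at 24 h, by -0.35 and -0.33. Rin2 did the same, with 0.62 (SE 0.19) and -0.39 (SE 0.18). For both genes RA at 48 h ended near its 6 h level, with differences of 0.20 and 0.01 for Spsb1 and 0.10 for Rin2. Tom1l1 in the RA arrays changed by 0.32 (SE 0.18) from 6 to 12 h and by -0.49 (SE 0.17) from 24 to 48 h. These steps had the direction of those in its controls, 0.57 and -0.51. From 12 to 24 h it changed by -0.11 (SE 0.17) in the RA arrays, against -0.45 (SE 0.17) in controls. The comparisons at the 4 times use different arrays, and whether the RA difference itself changed with time was not tested.

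Markers of cell types moved with time and, in part, with RA. In the controls from 6 to 48 h, 4 of 12 measured neural crest markers were lower (Tfap2a, Pax3, Msx1 and Msx2), as were 2 of 5 neural tube markers (Sox2 and Pax6), by limma at an adjusted p below 0.05. The summed intensity of the neural crest list ran from 3010 to 3497 in the 6 h controls and from 2222 to 3272 in the 48 h controls. That of the neural tube list ran from 3456 to 4147 and from 2575 to 3431. One of 5 neuronal markers (Stmn2) and 2 of 6 surface ectoderm markers (Epcam and Cldn7) were lower, and 1 of 8 mesoderm and muscle markers (Myog) was higher. Over all probe sets 5.29% were lower and 4.23% higher. No intensity on these arrays was 0, the lowest being 3.92. Their part in the change of Tom1l1 with time was not tested.

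With RA, none of the 12 neural crest markers passed at any time in limma, and their summed intensity overlapped between RA and control arrays at each time. Of all probe sets 0.0242%, 0.0242%, 0.153% and 0.274% passed at 6, 12, 24 and 48 h, and 0.564% in the mean over times. At such shares, none among 12 markers says little about them. The neural tube sum was lower with RA at 12 h, from 2835 to 3416 against 3795 to 4125 in controls, and at 24 h, from 2773 to 3557 against 3685 to 4131. Of its 5 genes, Fabp7 passed in limma at 24 h and in the mean over times. At 12 and 24 h, Sox2 differed by -0.80 and -0.66 and Fabp7 by -1.07 and -1.26. Nes differed by 0.09 and 0.04, Sox1 by 0.06 and -0.02 and Pax6 by -0.48 and 0.04. The median of the list at 24 h was -0.02. The 12 h neuronal sum, from 1736 to 2135 against 2180 to 2230, did not overlap either, and none of its 5 genes passed. Nor did the 12 h blood sum, from 430 to 458 against 460 to 606 in controls. How often sums of other genes lie apart in this way was not computed. Of 8 mesoderm and muscle markers, Meox1 was higher with RA at 24 and 48 h and in the mean over times, and Meox2 was lower in the mean over times. Their RA differences at 6, 12, 24 and 48 h were 0.37, 0.78, 0.90 and 1.24 for Meox1 and -0.67, -0.83, -0.91 and -1.70 for Meox2. The lists for surface ectoderm, endothelium, blood and endoderm had no gene past the threshold in any RA comparison. Whether these shifts have a part in the RA differences of Spsb1, Rin2 and Tom1l1 was not tested.

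The arrays form an RA and a control cluster for Spsb1 and Rin2, so correlations between the genes were read within each. Spsb1 (161817_f_at) and Rin2 had r = 0.55 among the 14 control arrays and 0.50 among the 13 RA arrays. The 8 group means had r = 0.99, while the deviations of single arrays from their group means had r = 0.20. Both genes were chosen for their RA response, so a high r over RA and control means follows in part from that choice. Little of the variation between arrays of one group was shared. Tom1l1 had r = 0.38 with Spsb1 and 0.30 with Rin2 within controls, and 0.22 and 0.32 within RA arrays, values that include changes between times. After group means were taken away they were -0.21 and -0.39. All of these describe arrays that share RNA source, scan days and normalisation.

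**Figure D3:**
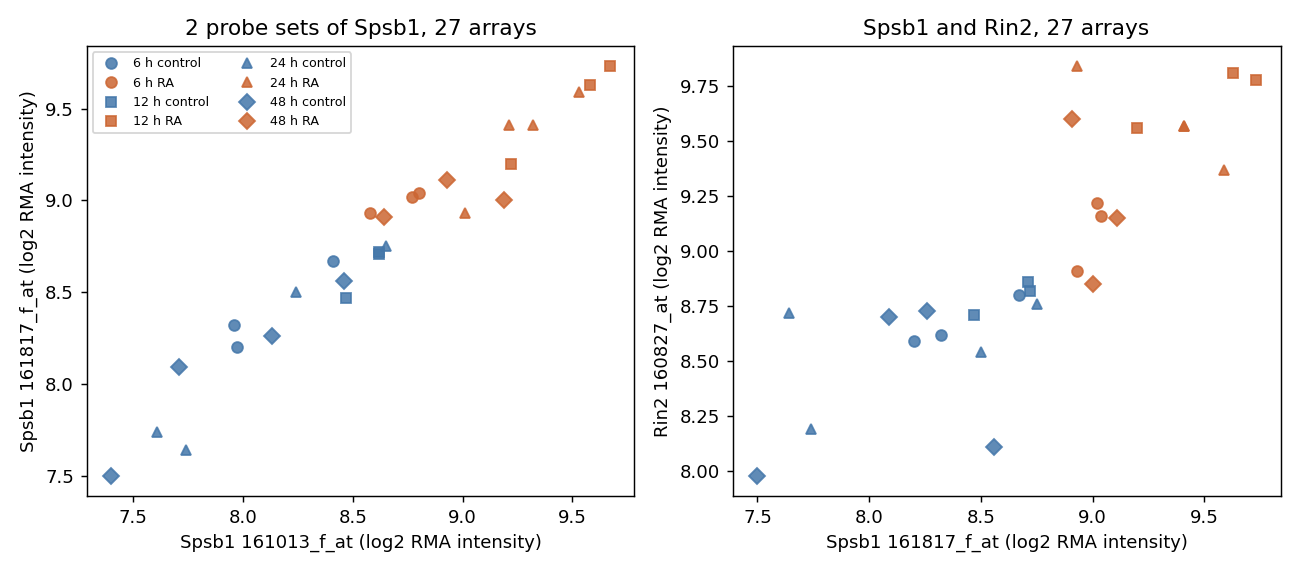
Log2 RMA intensity of 161013_f_at against 161817_f_at, both of Spsb1 (left), and of Rin2 against Spsb1 (right), with 1 point for each of the 27 arrays. Colour gives the treatment (blue control, orange RA) and shape the time. The Spsb1 probe sets follow one line (r = 0.97), and in the right panel the RA arrays form a cluster above and to the right of the controls, with little order within each group.

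By Pearson's r over the 27 arrays, with 1 probe set for each of the 8251 genes, the patterns most like Spsb1 were those of Csn3 (0.83), Rin2 (0.83), Arg1 (0.80), Dhrs3 (0.76) and Cyp26a1 (0.75). The most like Rin2 were Arg1 (0.83), Spsb1 (0.83), Csn3 (0.80), Traf3ip2 (0.80) and Cyp26a1 (0.79). Apart from each other, Spsb1 and Rin2 thus had Csn3, Arg1 and Cyp26a1 in common on these lists. For Spsb1 and Rin2, r over all arrays takes in the RA difference that chose them. Other genes higher with RA therefore rank high by construction, and the shared names are no further result. After group means were taken away, Csn3 kept r = 0.50 with Spsb1 and 0.19 with Rin2, while Arg1 had -0.10 and -0.05 and Cyp26a1 -0.25 and -0.29. The genes most like Tom1l1 were Aspm (0.84), Mest (0.81), Kif2c (0.81), Topbp1 (0.81) and Nde1 (0.80), none of them on the other lists. After group means were taken away these 5 kept r between 0.58 and 0.76 with Tom1l1. For Tom1l1 too, r over all arrays takes in the RA difference that chose it. The genes on all these lists were picked by r over the same arrays, which includes the deviations from group means. What remains of r is therefore in part selected for.

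Partners and relatives of the 3 proteins were read from 5 lists. Of 78 listed genes other than Spsb1, Rin2 and Tom1l1, 55 had a probe set naming that gene alone. In limma none of the 55 passed an adjusted p of 0.05 at any single time or in the mean over times, where the shares of all probe sets that passed were 0.0242%, 0.0242%, 0.153% and 0.274% for 6, 12, 24 and 48 h and 0.564% for the mean. At an unadjusted p below 0.05 there were 5, 1, 1 and 3 of the 55 at 6, 12, 24 and 48 h, and 2 in the mean over times. The shares of all probe sets at that threshold were 4.29%, 2.49%, 1.84% and 3.42% at these times and 5.63% in the mean. The median RA difference of the 55 was -0.01 in the mean over times, beside 0.01 over all probe sets, and single genes ran from -0.39 to 0.20.

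In the ligase list, SPSB and Cullin5 genes with the SOCS box family, 9 of 14 were measured and their median was 0.02. Socs2, an inhibitor of cytokine and growth hormone signalling, had the lowest value, with -0.39 (SE 0.12, limma adjusted p = 0.216), and Eloc (elongin C) the highest, with 0.20 (SE 0.11). When scan day was taken as a block Socs2 passed, at -0.39 (limma adjusted p = 0.0204), and likewise for record pair, at -0.39 (adjusted p = 0.0141). Under these blocks 2.30% and 2.94% of all probe sets passed. With replicate number as a block Socs2 was at -0.37 and did not pass (adjusted p = 0.0898). At 6 h its controls read 9.31, 9.34 and 9.39, and its RA arrays 8.86, 8.94 and 8.99, without overlap. RA arrays lay below all controls for 8.29% of all probe sets at that time. At 48 h the Socs2 controls had 8.44, 8.82, 9.09 and 9.13 and the RA arrays 7.99, 8.72 and 8.44, which overlapped. Spsb2, the only other SPSB gene measured and named here after its values were seen, differed by -0.03 (SE 0.06). All 6 genes of the list of SPSB1 substrates and receptors were measured, and none differed by more than 0.09 in the mean over times. The highest were Pawr at 0.09 (SE 0.18) and Met, a receptor tyrosine kinase, at 0.05 (SE 0.07). Group means of Tgfbr2, Met, Ddx4 and Nos2 were at most 3.26, 3.43, 4.19 and 4.94. These genes were thus dimmer than Tom1l1, whose lowest array had 5.49. At such levels the lack of a difference says little about their transcripts.

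In the list of RIN proteins and Rab5 partners, 14 of 25 were measured, with a median of -0.02. Bin1, an amphiphysin that bends membranes and binds RIN proteins, had 0.16 (SE 0.07), and Rab4a, a GTPase of recycling endosomes, had -0.15 (SE 0.09). The endosomal sorting list around TOM1 had 18 of 22 measured and a median of -0.05. Vps37c, a subunit of the ESCRT-I complex, had -0.18 (SE 0.10), and Tollip, a binding partner of TOM1 proteins, -0.14 (SE 0.07). Tom1, the closest relative of Tom1l1 measured and likewise named after its values were seen, had -0.44 (SE 0.19) at 6 h and between -0.09 and 0.04 at the later times. Among Src kinases and receptors bound by TOM1L1, 9 of 12 were measured, with a median of 0.02. Shc1, an adaptor of growth factor receptors, had -0.22 (SE 0.11) and Egfr 0.16 (SE 0.08).

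Egfr, the epidermal growth factor receptor, differed most at 48 h. Its 48 h controls read 6.59, 6.50, 6.57 and 7.11 and its RA arrays 6.92, 6.98 and 7.84. Control 4 lay above 2 of the RA arrays, and RA 3 was far above all. The difference was 0.56 (SE 0.16, limma adjusted p = 0.315). It passed with replicate number (0.69, adjusted p = 0.0336), scan day (0.49, adjusted p = 0.00688) or record pair (0.49, adjusted p = 0.0170) as a block, and without 48 h control 4 (0.69, adjusted p = 0.0442). Under the 3 blocks the shares of all probe sets that passed at 48 h were 1.02%, 0.797% and 0.990%. The replicate number joins control 2 with RA 2 and control 3 with RA 3 at 48 h, arrays of different scan days. Their deviations from group means had r of -0.308 and 0.03. The record pairs of the same RA arrays had r of 0.717 and 0.73.

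**Figure D4:**
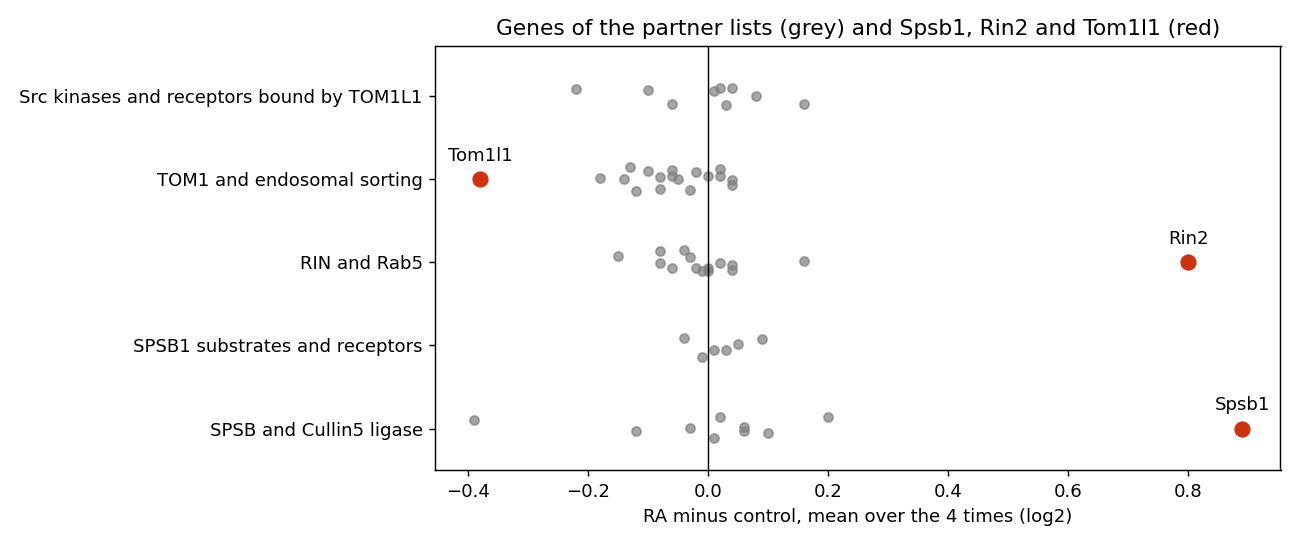
RA minus control, as the mean over the 4 times in log2 units (horizontal axis), for the genes of 5 lists of partners and relatives (rows). Grey points are single genes, placed with a vertical offset that carries no value, and red points are Spsb1 (161817_f_at), Rin2 and Tom1l1. The grey points lie between -0.39 and 0.20, with Socs2 the leftmost, and the red points at 0.89, 0.80 and -0.38.

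Some of these partners differed between the labelled times in controls, where the overnight culture of the 6 h groups enters each comparison with 6 h. From 6 to 48 h, 5 of the 55 were higher (Tollip, Cltc, Zfyve16, Fyn and Egfr) and 3 lower (Eloc, Rnf7 and Rab4a) by limma at an adjusted p below 0.05, next to 4.23% and 5.29% of all probe sets. The largest fall was that of Eloc, from 10.36 to 9.06 (-1.30, SE 0.22, adjusted p = 0.000499). Rnf7, the RING protein of the Cullin5 ligase, fell by 0.37 (SE 0.11, adjusted p = 0.0401). Rab4a, the recycling GTPase, fell from 8.42 to 7.36 (-1.07, SE 0.19, adjusted p = 0.000623). Of the higher genes, Tollip rose by 0.58 (SE 0.14, adjusted p = 0.00813) and Cltc, the clathrin heavy chain, by 0.43 (SE 0.14, adjusted p = 0.0484). Zfyve16, a FYVE domain protein that recruits TOM1 to endosomes, rose by 0.51 (SE 0.13, adjusted p = 0.0160). Fyn, a Src family kinase, rose by 0.58 (SE 0.15, adjusted p = 0.0154), and Egfr by 0.55 (SE 0.16, adjusted p = 0.0320). The count of 8 fell to 3 with scan day as a block, to 2 when the 6 h and 48 h controls were fitted alone, and to 3, 5 and 2 without 6 h control 1, 2 and 3. With scan day as a block 4.59% of all probe sets passed.

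The F-test over the 4 control times passed for 8 of the 55 genes, next to 12.9% of all probe sets. They were Eloc, Rab4a, Rab21, Tollip, Stam2, Cltb, Cltc and Fyn, with limma adjusted p from 0.000133 (Fyn) to 0.0346 (Cltb). Fyn had its highest control mean at 12 h, as Tom1l1 did, with means of 8.27, 9.46, 9.13 and 8.85 for the 6, 12, 24 and 48 h controls. Unlike Tom1l1 it was still higher at 48 than at 6 h. With scan day as a block the F-test passed for 4 of the 55 and 6.96% of all probe sets, and without 6 h control 1 and 3 for 5 and 4.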

How the data were processed

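Transcript levels were read from 27 Affymetrix MG_U74Av2 arrays of murine neural crest explants. Per the labels, the authors made the deposited intensities with RMA Express 0.2 (background correction, quantile normalisation, summary of each probe set) and later used GeneSpring. The sources used here do not say whether GeneSpring altered these numbers. The deposited intensities were linear, from 3.92 to 17003, with array medians between 92.1 and 100.5, so log2 was taken once. Of 12488 probe sets, 66 control probe sets were left out. A single gene was named by 10833 of the 12422 others, several by 396 and none by 1193, and a gene with several probe sets was read from the brightest unless all are given.

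Arrays were grouped by title. One limma model (3.58.1, R 4.3.3, lmFit and eBayes) of 8 groups was fitted over all 12422 probe sets, with two-sided p-values adjusted by Benjamini-Hochberg. The genes and the partner lists were chosen with earlier results of these data known, so RA differences of Spsb1, Rin2 and Tom1l1 have no p. Nothing says that arrays came from separate cultures, so p-values measure only the spread between these arrays, and the number of arrays limits precision. Same-numbered RA and control arrays deviated together at 6 h (r 0.447 to 0.47) and 24 h (0.229 to 0.622), not at each pair of 12 h (from -0.052) or 48 h (from -0.308). Record pairs had a median r of 0.451, against -0.203 for other RA and control arrays of the same time. The replicate number is therefore an alternative. So are cyclic loess, median centring, a filter that drops the dimmest 30% of probe sets, blocks for scan day or record pair, regrouping 48 h control 3, fitting compared arrays alone and leaving out each array. Values within a scan day and ratios of mean intensities were added after seeing the data. The script was tested on simulated data. Named were all probe sets of the 3 genes, Cyp26a1 and Dhrs3, the 5 genes most correlated with each gene, and in each list up to 6 genes past an adjusted p of 0.05 or else the 2 with the largest mean RA difference. Promoters came from RefSeq (GRCm38.p6). Protein sequences were not used here.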

Additional observations from a re-analysis of the deposited data

How the results depend on the processing

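The RA differences of Spsb1, Rin2 and Tom1l1 kept their direction in all settings tried. Leaving out 1 array gave 648 log2 differences, and the other settings, some fitted on part of the arrays, gave 216. All 648 and 215 of the 216 moved by less than the spread between replicates (0.23 to 0.33). For Tom1l1 this spread is near the size of its differences at 6, 24 and 48 h. The exception was 161013_f_at of Spsb1 at 48 h, 0.62 with 48 h control 3 grouped as RA against 0.99. With the replicate block, which pairs arrays by number, 161013_f_at differed by 0.61, 0.92, 1.20 and 1.06 at 6, 12, 24 and 48 h, Rin2 by 0.43, 0.92, 1.03 and 0.94 and Tom1l1 by -0.36, -0.61, -0.28 and -0.32, and the adjusted p of Tom1l1 over control times was 0.00389. At 48 h the replicate block joins arrays of different scan days under numbers 2 and 3, which limits its values at that time. The tests over control times stayed on their side of 0.05 in all 140 refits. Of the 55 partner genes, the replicate, scan day and record pair blocks each called 1 at 48 h (0 without a block, 0 to 1 with 1 array left out), and scan day and record pair each called 1 in the mean over times (0 without a block or with 1 array left out). Under these blocks 0.797% to 1.02% of all probe sets passed at 48 h, and 2.30% and 2.94% in the mean. The replicate block changed no other call of these genes by over 1.5 times. From 6 to 48 h in controls 8 were called, 3 with scan day as a block (4.59% of all probe sets), 2 with the compared arrays alone and 2 to 10 with 1 array left out. Over all control times 8 were called, 4 with scan day as a block (6.96% of all) and 4 to 11 with 1 array left out. The cause was not tested. The dim signal of Tom1l1 and the 6 h and 48 h scan days, which hold no other time, limit what its change with time can show. The overnight culture of the 6 h groups limits it too.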
